A study of Mus musculus with 14 samples.

Results

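Among 24354 genes measured by RNA-seq in mouse quadriceps, 23 were low in wild-type muscle and higher in every library of HDAC3 knockout muscle than in any of wild type by the conditions below, and 19 of them form the group studied here. They were chosen from the measured values: a mean below 1 FPKM (fragments per kilobase of transcript, scaled to the depth of the library) over the wild-type libraries, a mean of at least 0.5 FPKM over the knockout libraries, and a lowest knockout value more than 2 times the highest wild-type value. The other 4 genes that met these conditions, Srrm4os, Tlcd2, Slc7a5 and Sesn2, are left out of the group. Both groups of libraries were made from quadriceps of male C57BL/6 mice aged 4 months, kept on chow under a normal light and dark schedule and labelled as resting. One group was labelled HDAC3 wild type and the other HDAC3 knockout, with 3 libraries each, all taken at ZT10, which is 10 hours after lights on. The labels give no treatment, and the sources used here give neither the way in which HDAC3 was removed nor the cell type concerned. Whether a replicate is its own animal is not stated in the labels, so the tests measure only the spread between these libraries, which may be technical. The other 8 of the 14 samples of the series are ChIP-seq, input and nascent-transcript libraries and were not analysed here.

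HDAC3 is a histone deacetylase that works as the catalytic subunit of the NCoR and SMRT corepressor complexes. These complexes are brought to DNA by nuclear receptors such as Rev-erb alpha and by other repressors, and they keep target genes at a low level by removing acetyl groups from histones. Genes of other tissues or of stress programmes are often held near silence in a differentiated cell, and a gene of that kind shows up in RNA-seq as a handful of fragments or none.

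Hdac3 itself was at 33.3, 31.0 and 23.7 FPKM in wild type and at 5.51, 6.29 and 8.16 in the knockout, and the groups did not overlap. FPKM summed to between 454359 and 495099 per library, and 10281 to 10544 genes reached 1 FPKM. The table holds no read numbers, but the spacing of low values gave the relative depth: against wild-type replicate 1, the other wild-type libraries had 0.831 and 1.02 times the depth and knockout replicates 1, 2 and 3 had 0.660, 0.832 and 0.674 times. Summed skeletal muscle markers ranged from 44213 to 54983 FPKM in wild type and from 43688 to 53157 in the knockout. Among markers of other cells, neutrophil genes summed to 5.50 to 479 FPKM in wild type, with the high value in a single library, and to 3.74 to 8.23 in the knockout. Satellite cell markers summed to 4.21 to 5.93 and to 1.80 to 3.06 FPKM. In such bulk tissue, fewer cells of a type and less RNA per cell cannot be told apart, and the part of cell composition in the values below was not tested.

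The 19 genes divide by level. In the knockout, 8 had a mean of 1 FPKM or more and 11 lay below it, the highest being the adenosine receptor gene Adora1. Their ratios of knockout to wild-type means ran from 2.58 for Brca2 to 41.7 for Rnaset2a, with a median of 5.64. At least 1 wild-type library was listed at 0 for 8 genes, and 2 wild-type libraries for 4 genes. No gene was at 0 in all 3. Since the conditions fix the direction and a minimum distance between the groups, these ratios describe the choice and carry no test.

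**Figure D1:**
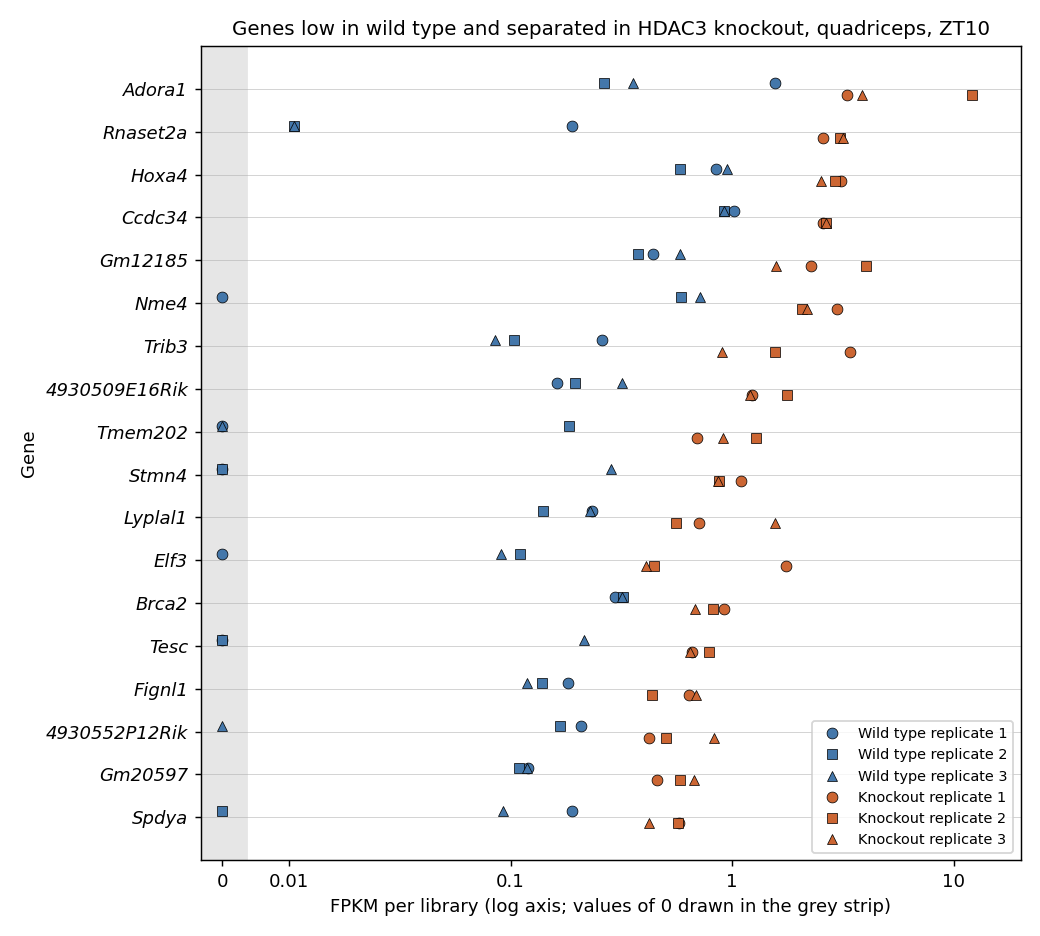
FPKM of 18 of the 19 genes in each library on a log axis, with values of 0 in the grey strip; blue marks are the 3 wild-type libraries and orange marks the 3 knockout libraries. Wild-type points lie to the left of the knockout points in every row, as the choice of genes requires, while the spread of the knockout points differs from tight in Ccdc34 to wide in Adora1, Trib3 and Elf3.

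How common such genes are can be read from the whole table. Of 13810 genes with a wild-type mean below 1 FPKM, 1260 had a knockout mean of at least 0.5 FPKM, and 23 of these (1.83%) met the separation as well. With the groups exchanged, 1586 genes were below 1 FPKM in the knockout and at least 0.5 FPKM in wild type, and 38 of them (2.4%) were separated in the same way. Low genes that differ this far were thus more numerous in the downward direction than in the upward one. Between 9750 and 10009 genes were at 0 in the knockout libraries, and between 9204 and 9304 in the wild-type libraries. Knockout replicates 1 and 3 were the shallowest libraries, and the part of depth in these counts was not tested.

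Genes at the edge of the conditions differed little from one another. The last genes inside were the noncoding RNA 4930552P12Rik, whose lowest knockout value was 2.02 times its highest wild-type value, Adora1 at 2.11 times and Brca2 at 2.12 times. Just outside lay the chemokine gene Ccl2 at 1.998 times, the serine protease gene Hpn at 1.94 times and the zinc transporter gene Slc39a12 at 1.89 times. Ccl2, with 0.268, 0.323 and 0.263 FPKM in wild type and 3.66, 0.645 and 1.99 in the knockout, missed through a single knockout library.

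By the limma test on log2(FPKM + 0.1), 7 of the 19 genes were called higher at an adjusted p under 0.05, beside 1.74% of all 13009 genes fitted. Groups did not overlap, with the knockout higher, in 12.5% of the genes fitted. Both counts use the contrast by which the genes were chosen, so nothing is read from them. The same holds for each p-value and q-value given for a member here and below. The authors' deposited table gave a test to 7 of the 19 genes, and 3 of those (Adora1, Ccdc34 and Gm12185) had a q-value under 0.05, beside 5.9% of its 9204 tested genes called higher and 4.94% called lower. Hoxa4, Nme4, Trib3 and Rnaset2a, also tested there, had q-values of 0.0565, 0.258, 0.206 and 0.498.

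The number of fragments behind these values has a lower bound. Low FPKM values of a gene are whole multiples of what 1 fragment is worth, and for 14 of the 19 genes a smallest set of whole numbers was found for all 6 libraries within 0.05 of a fragment and up to 30 fragments, as for 75.9% of 2508 genes with a mean of 0.25 to 1 FPKM. These are minimum numbers, since any common multiple would give the same FPKM. Ccdc34 then had 12, 9 and 11 fragments in wild type and 20, 26 and 21 in the knockout, the highest wild-type sum of the 14. At the other end, Tesc had 0, 0 and 1 against 2, 3 and 2. Tmem202, with 0, 1 and 0 against 3, 7 and 4, likewise had a wild-type sum of 1. In 11 genes the wild-type libraries together held 5 or fewer such units, and in 9 genes the knockout libraries together held 21 or fewer. All 3 knockout libraries were shallower than wild-type replicate 1, and at the same FPKM they hold fewer fragments.

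**Figure D2:**
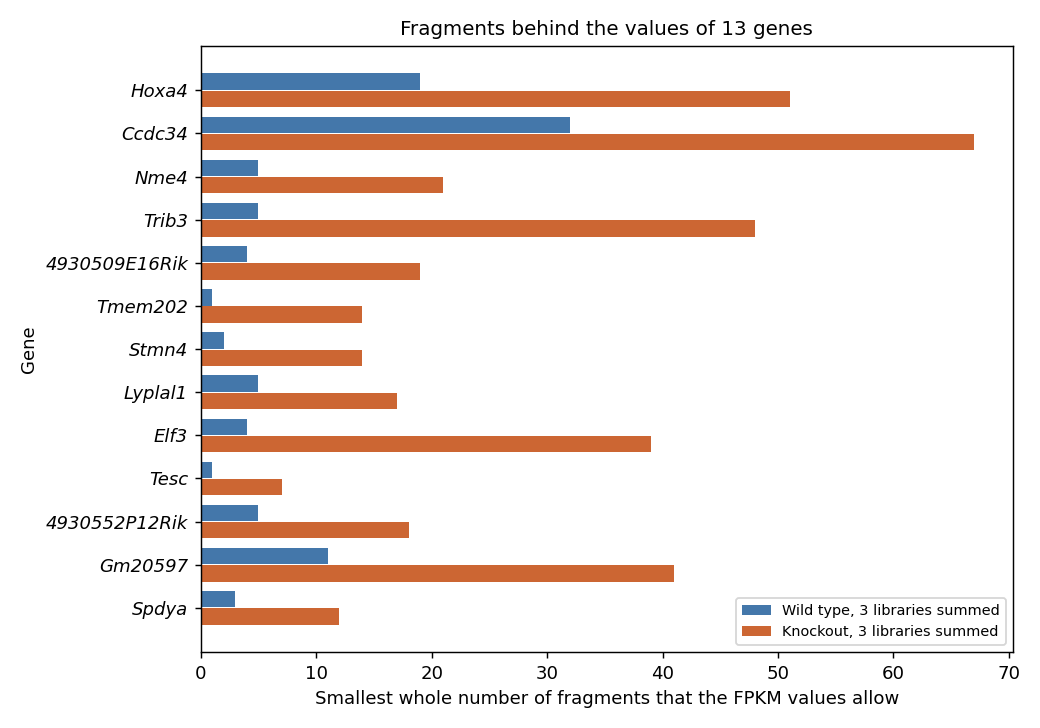
Smallest whole numbers of fragments for 13 of the 14 genes in which they could be found, as bars of the sum over 3 libraries, wild type in blue and knockout in orange. Wild-type sums are 5 or less in 10 of the 13 genes and highest in Ccdc34, at 32, and knockout sums start at 7 in Tesc.

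The first gene with a known role in stress is Trib3, a tribbles pseudokinase that is switched on by the transcription factors ATF4 and CHOP and binds AKT. It was at 0.259, 0.104 and 0.0847 FPKM in wild type and at 3.40, 1.56 and 0.898 in the knockout. The lowest knockout library stood well above the highest wild-type library, but the knockout libraries differed 3.79-fold among themselves. The means were 0.149 ± 0.0958 and 1.95 ± 1.30 FPKM (SD, n = 3 libraries each), a ratio of 13.1. Leaving out wild-type replicate 1 gave a ratio of 20.7, and leaving out knockout replicate 1 gave 8.22. The related pseudokinase genes were not called by limma: Trib1 was at 3.83, 6.67 and 6.65 FPKM in wild type and at 5.99, 5.06 and 6.62 in the knockout (limma adjusted p = 0.908), and Trib2 at 6.22, 11.8 and 11.99 and at 9.36, 4.79 and 4.02 (limma adjusted p = 0.341). Both pairs of groups overlapped, although the q-value that the authors deposited for Trib2, 0.00213, calls it lower.

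The integrated stress response, to which Trib3 belongs, lowers general translation through phosphorylated eIF2 alpha and raises ATF4, which turns on amino acid synthesis and transport genes. Of 34 other genes of this response that were measured, 30 were fitted, and limma called 9 higher: Atf4, Atf5, Mthfd2, Sesn2, Slc7a5, Cebpg, Cth, Eif4ebp1 and Herpud1. None was called lower by limma or by the authors' q-value, and none was lower at an unadjusted p under 0.05, against 15 that were higher. The authors' q-value called 15 of 25 higher. The median log2 difference of the 30 genes was 0.64, against -0.01 for all genes fitted. Sesn2 and Slc7a5 met the same conditions as the genes described here, and the list was chosen with earlier results known, so its count is no separate support. The limma count fell to 1 without knockout replicate 3 and to 2 with a block for the replicate number. It was 3 without wild-type replicate 2 or knockout replicate 2 and 4 without knockout replicate 1. Without wild-type replicate 3 the count was 6, and without wild-type replicate 1 it was 7.

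Among these genes, Mthfd2, a mitochondrial enzyme of folate metabolism, was at 1.63, 1.44 and 2.35 FPKM in wild type and at 47.2, 23.8 and 41.7 in the knockout (limma log2 difference 4.27 ± 0.29 SE, adjusted p = 0.00233). Atf4 itself was at 144, 125 and 137 FPKM and at 265, 212 and 213 (log2 difference 0.76 ± 0.12, adjusted p = 0.0266). Neither pair of groups overlapped. CHOP, encoded by Ddit3, was at 8.22, 17.7 and 37.9 FPKM in wild type and at 57.5, 14.2 and 29.1 in the knockout, with overlapping groups. Knockout replicate 1, in which Trib3 was highest, was also the highest knockout library for 17 of the 30 genes, beside 34.9% of all genes fitted. Fgf21, a secreted hormone gene that ATF4 activates, was listed at 0 in the 3 wild-type libraries and at 0.656, 0.521 and 0.322 FPKM in the knockout. Its knockout mean of 0.4997 FPKM fell just short of the level required, and the values stand for 2, 2 and 1 fragments at the least.

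**Figure D3:**
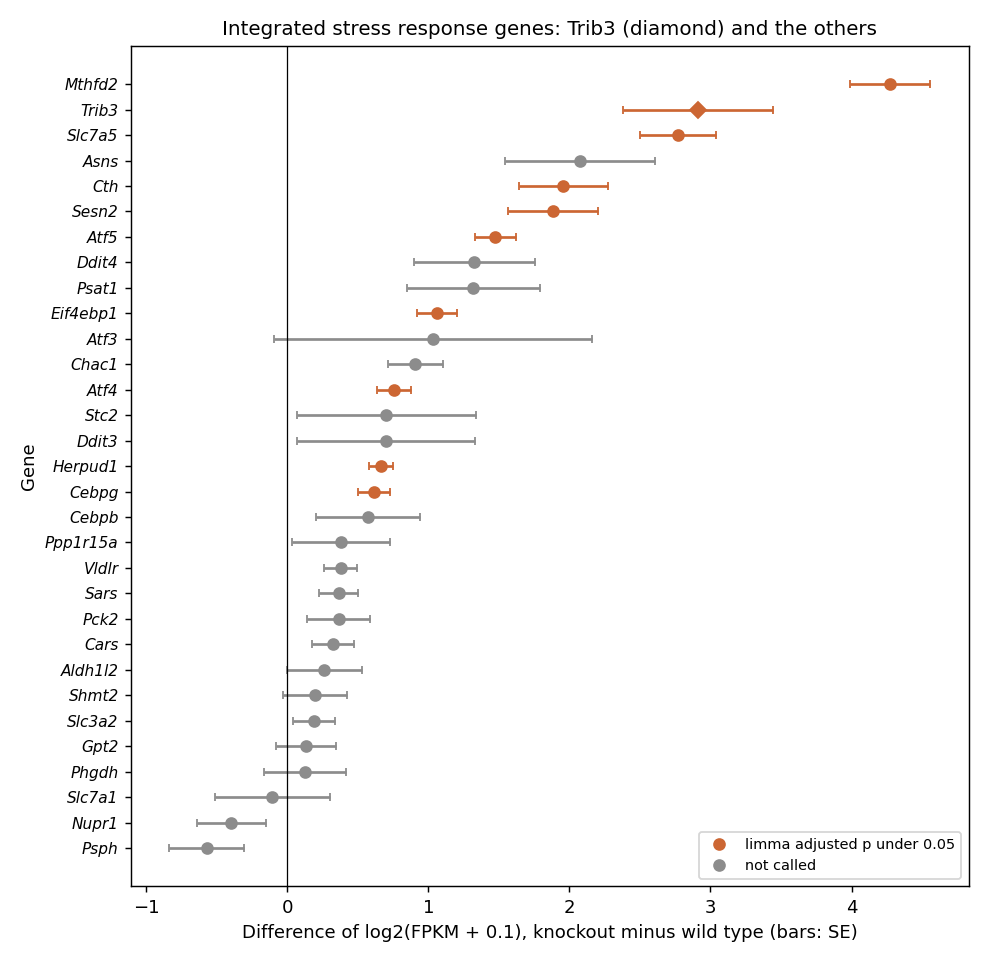
Log2 differences of the integrated stress response genes fitted, Trib3 included, knockout minus wild type on the log2(FPKM + 0.1) scale with standard errors from limma. Mthfd2, at 4.27, has the largest difference among the genes plotted, followed by Trib3, the diamond, at 2.91 and Slc7a5 at 2.77; orange marks genes with an adjusted p under 0.05.

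The DNA before the start sites is shown for 4 genes that stand for different roles in the group, namely Trib3 for stress, Brca2 for DNA repair, Gm12185 for a cluster of immunity-related GTPase genes and Adora1 for receptors. Each line holds the 250 bases before the start site, 5′ to 3′ on the gene's strand, from RefSeq on GRCm38.p6: chr2:152344061-152344310 on the minus strand for Trib3, chr5:150522371-150522620 on the plus strand for Brca2, chr11:48927183-48927432 on the minus strand for Gm12185 and chr1:134235458-134235707 on the minus strand for the upstream one of the pair of Adora1 start sites. Capitals mark matches to the motifs searched on both strands.
Trib3 upstream: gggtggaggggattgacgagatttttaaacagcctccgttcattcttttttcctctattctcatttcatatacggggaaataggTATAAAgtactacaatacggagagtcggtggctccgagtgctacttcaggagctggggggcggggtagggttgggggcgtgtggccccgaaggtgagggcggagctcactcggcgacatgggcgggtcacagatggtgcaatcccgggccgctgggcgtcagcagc
Brca2 upstream: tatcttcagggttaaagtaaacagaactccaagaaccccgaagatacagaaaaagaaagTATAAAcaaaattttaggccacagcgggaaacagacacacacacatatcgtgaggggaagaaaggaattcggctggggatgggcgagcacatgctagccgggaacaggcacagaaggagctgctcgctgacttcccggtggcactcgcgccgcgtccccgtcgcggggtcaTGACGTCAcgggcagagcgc
Gm12185 upstream: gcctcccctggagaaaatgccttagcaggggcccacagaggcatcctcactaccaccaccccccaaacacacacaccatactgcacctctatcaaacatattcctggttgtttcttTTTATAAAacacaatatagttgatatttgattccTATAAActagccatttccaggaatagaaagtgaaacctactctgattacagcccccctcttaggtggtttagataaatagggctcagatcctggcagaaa
Adora1 upstream: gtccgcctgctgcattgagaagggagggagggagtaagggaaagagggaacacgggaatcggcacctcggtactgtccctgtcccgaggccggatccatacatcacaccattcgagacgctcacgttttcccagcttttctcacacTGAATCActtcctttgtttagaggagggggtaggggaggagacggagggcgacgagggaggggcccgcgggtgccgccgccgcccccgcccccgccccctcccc
Trib3 holds the TATA motif TATAAA at position -166 relative to its start, and Brca2 holds it at position -191. Brca2 also has the cAMP response element TGACGTCA at position -20. This motif is found in 1.79% of all 32851 promoter windows of 300 bases and in 2.94% of those of genes fitted. Gm12185 carries TATAAA 3 times, of which 2 overlap on opposite strands, and no CG dinucleotide lies in its window. Adora1 has 1 match to the AP-1 motif TGANTCA, at position -104.

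Such windows were found for 15 of the 19 genes, and none of the 11 motifs searched was in all of them. The window reaches from 250 bases before to 50 after the start. TATAAA was in 4 of the 15 genes (26.7%), against 13.6% of all windows and 7.71% of those of genes fitted. AGGTCA, a core element recognised by nuclear receptors such as Rev-erb, was in Fignl1 and Lyplal1 (13.3% of the 15 genes). It was in 16.3% of all windows and in 12.7% of those of genes fitted. The myogenic E-box CAGCTG was in Rnaset2a only and the AP-1 motif in Adora1 only. The cAMP response element was in Brca2 only and ACAGNGCC, the right part of the REST site, in Gm20597 only. In this order, 16.3%, 7.81%, 1.79% and 5.99% of all windows hold them. The shares in windows of genes fitted are 15.7%, 5.13%, 2.94% and 6.18%. The E-box CACGTG, the D-box (TTACGTAA or TTATGTAA), TGATGCAA, which is bound by ATF4 with C/EBP proteins, TTCAGCACC, the left part of the REST site, and CTATTTATA, a MEF2 site, had no match in the 15 genes. These letters are present in 7.15%, 1.06%, 0.895%, 0.371% and 0.429% of all windows. In windows of genes fitted they are present in 9.76%, 0.758%, 0.614%, 0.303% and 0.415%. The median ratio of observed to expected CG dinucleotides was 0.821 in the members' 17 windows, 0.74 in windows of genes fitted and 0.384 in all windows.

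Among receptors, Adora1, which encodes the adenosine A1 receptor, reached the highest knockout level of the group. It was at 1.57, 0.263 and 0.357 FPKM in wild type and at 3.31, 12.1 and 3.84 in the knockout. Wild-type replicate 1 and knockout replicate 2 stood apart from the other libraries of their groups. The means were 0.729 ± 0.728 and 6.42 ± 4.93 FPKM, a ratio of 8.80. With wild-type replicate 1 left out the ratio was 20.7, and with knockout replicate 2 left out it was 4.90. The limma log2 difference was 3.07 ± 0.68 (adjusted p = 0.0642).

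Adora1 overlaps Mybph, which encodes myosin-binding protein H, in the RefSeq annotation. Mybph was at 10.2, 2.60 and 1.93 FPKM in wild type and at 24.1, 74.6 and 27.4 in the knockout, so it was high in the same wild-type and the same knockout library as Adora1. Its limma log2 difference was 3.26 ± 0.65 (adjusted p = 0.0490), a call that was lost without wild-type replicate 2 or 3 or knockout replicate 1 or 3. Adora1 amounted to 15.3%, 10.1% and 18.5% of the Mybph level in the wild-type libraries and to between 13.7% and 16.2% in the knockout libraries. These shares overlapped between the groups, while the level of each gene did not. The sources used here do not state whether counting used the strand, and fragments of overlapping genes cannot then be told apart. Myog, the myogenin gene and the next gene beyond, was at 2.01, 0.906 and 2.70 FPKM in wild type and at 3.99, 4.07 and 5.96 in the knockout (limma adjusted p = 0.116). The Myog groups were apart with the knockout higher, and the q-value deposited by the authors, 0.00794, calls it higher. Other adenosine receptor genes had other patterns: Adora2a was at 0.199, 0.320 and 0.391 FPKM and at 0.101, 0.0799 and 0.0986, with the knockout lower in every library, and Adora2b, at 0.195 to 0.469 and 0.434 to 0.703, overlapped.

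**Figure D4:**
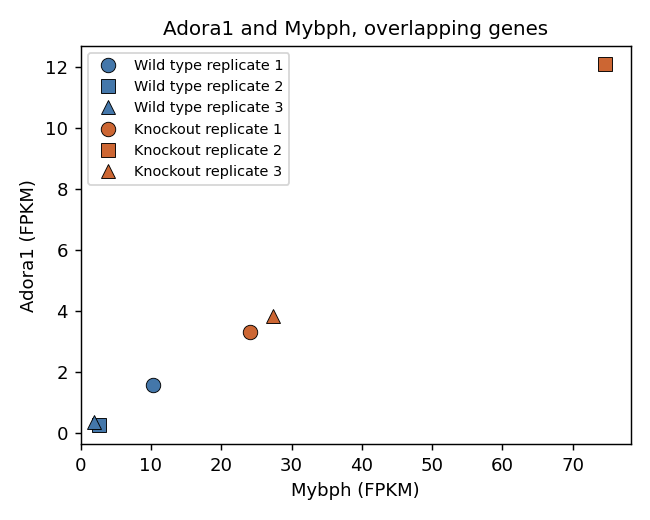
Level of Adora1 against that of the overlapping gene Mybph, 1 point per library in FPKM, wild type in blue and knockout in orange. Adora1 stays between 10.1% and 18.5% of Mybph in all 6 libraries, and knockout replicate 2 is the highest in both genes.

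Overlaps with another gene were present in 5 members. Tmem202, which encodes a membrane protein, had 0, 0.183 and 0 FPKM in wild type and 0.693, 1.28 and 0.905 in the knockout, and it overlaps Hexa, a lysosomal enzyme gene that was at 24.3, 23.3 and 27.6 FPKM and at 31.0, 24.7 and 31.0 (limma adjusted p = 0.480). The Hexa groups overlapped and those of Tmem202 did not. The genes lying next to the members on either side numbered 38, of which 25 were fitted. Limma called 1 of them higher and none lower. At an unadjusted p under 0.05 none was lower, and the authors' q-value called 2 higher and none lower. Groups were apart with the knockout higher in 5 of the 25 and with it lower in 1, beside 12.5% and 11.6% of all genes fitted, and the median log2 difference was 0.10. No member lay next to another member.

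Enzyme genes were led by Rnaset2a, which encodes a ribonuclease of the T2 family that cuts RNA in lysosomes. It was at 0.190, 0.0105 and 0.0105 FPKM in wild type and at 2.57, 3.06 and 3.15 in the knockout. The knockout libraries lay close together and all far above the wild type. The means were 0.0703 ± 0.103 and 2.93 ± 0.312 FPKM, a ratio of 41.7 that became 278 without wild-type replicate 1. Its near-identical copy Rnaset2b was at 0.795, 0.718 and 1.95 FPKM in wild type and at 1.51, 2.63 and 0.885 in the knockout, with overlapping groups. Fragments that fit both copies can be assigned to either, so the split is uncertain. The sum of both was 0.985, 0.728 and 1.96 FPKM against 4.08, 5.69 and 4.04, a ratio of 3.76, and Rnaset2a made up 0.537% to 19.3% of it in wild type and 53.8% to 78.1% in the knockout. The sum stayed separated, at 2.06 times between the lowest knockout and the highest wild-type value, with a far smaller ratio than Rnaset2a alone.

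Nme4, which encodes the nucleoside diphosphate kinase of mitochondria, was at 0, 0.589 and 0.719 FPKM in wild type and at 2.97, 2.06 and 2.18 in the knockout, a ratio of means of 5.51. The smallest fragment numbers were 0, 2 and 3 against 8, 7 and 6. Relatives lay on both sides: Nme1 was at 26.9, 26.2 and 23.3 FPKM and at 38.4, 29.5 and 36.0 (limma adjusted p = 0.136), and Nme3 at 4.38, 4.52 and 8.58 and at 2.37, 2.26 and 1.86 (limma adjusted p = 0.0540). In both genes the groups were apart, with opposite signs, and neither passed the test. Lyplal1, a lysophospholipase-like serine hydrolase gene, was at 0.233, 0.140 and 0.228 FPKM and at 0.706, 0.560 and 1.56. Its knockout libraries differed 2.78-fold, with replicate 3 above the others. The related thioesterase genes Lypla1 and Lypla2 had overlapping groups (limma adjusted p = 0.380 and 0.774).

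Genes of DNA repair and the cell cycle formed the next set. Brca2, which acts in the repair of broken DNA by homologous recombination, was at 0.296, 0.321 and 0.319 FPKM in wild type and at 0.919, 0.819 and 0.681 in the knockout. It had the smallest ratio of the group, 2.58, and tight values in both groups (0.312 ± 0.0137 and 0.806 ± 0.120 FPKM). Fignl1, an ATPase gene of the same repair pathway, was at 0.181, 0.139 and 0.118 FPKM and at 0.640, 0.436 and 0.686. Spdya, which encodes the Speedy A activator of cyclin-dependent kinases, known from germ cells, was at 0.189, 0 and 0.0928 FPKM and at 0.574, 0.569 and 0.422. The ratio of Spdya was 5.54, and it became 11.2 without wild-type replicate 1 and 3.70 without wild-type replicate 2. Its partner by overlap, Trmt61b, which encodes a methyltransferase of transfer RNA, was at 2.84, 2.06 and 2.25 FPKM and at 3.06, 3.001 and 2.39.

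Other homologous recombination genes, a list drawn up after the members were known, numbered 16, of which 9 were fitted. Limma called none of them, 4 were higher and none lower at an unadjusted p under 0.05, the authors' q-value called 1 higher, and their median log2 difference was 0.45. Brca1 stayed below 0.25 FPKM in every library. Rad52 had a q-value of 0.0207 in the table deposited by the authors, with overlapping groups at 4.21, 4.16 and 6.36 FPKM and at 9.84, 6.26 and 8.51. Summed markers of dividing cells ranged from 2.47 to 7.50 FPKM in wild type and from 2.18 to 2.54 in the knockout. The high wild-type sum was that of replicate 2, which also held the high neutrophil sum, and the other wild-type libraries were at 2.47 and 2.52 FPKM. In every library but that one, most of the sum was the gene Ccna2. Without Ccna2 the other 5 genes summed to 0.571, 5.29 and 0.787 FPKM in wild type. In the knockout they summed to 0.464, 0.404 and 0.5498, so every knockout library was lower, though only just below wild-type replicate 1. This sum was chosen after the values were seen. Cdkn1a, which encodes p21, an inhibitor of the same kinases that Speedy activates, was at 0.841, 1.12 and 1.56 FPKM in wild type and at 11.3, 17.8 and 10.9 in the knockout (limma adjusted p = 0.00658).

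Transcription factor genes were represented by Hoxa4 and Elf3. Hoxa4, a homeobox gene that marks position along the body axis, was at 0.846, 0.582 and 0.947 FPKM in wild type and at 3.11, 2.91 and 2.51 in the knockout, a ratio of 3.59. The smallest fragment numbers were 7, 4 and 8 against 17, 20 and 14. The limma log2 difference was 1.74 ± 0.24 (adjusted p = 0.0201), and the q-value deposited by the authors was 0.0565. The limma call was lost with the replicate block and without wild-type replicate 2 or any single knockout replicate. Of 10 other Hoxa genes 9 were fitted, and limma called none in either direction, nor did any reach an unadjusted p under 0.05, have groups apart or have a q-value under 0.05 by the authors. Their median log2 difference was -0.06. Hoxa3, which overlaps Hoxa4, was at 0.273, 0.492 and 0.468 FPKM and at 0.310, 0.410 and 0.405, and Hoxa5, the following gene of the cluster, at 1.05, 0.804 and 1.12 and at 1.01, 0.344 and 0.425.

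Elf3, an ETS factor gene of epithelial cells, was at 0, 0.111 and 0.0901 FPKM in wild type and at 1.75, 0.442 and 0.410 in the knockout. Knockout replicate 1 alone carried most of the mean, and the ratio of 12.96 became 6.37 without it. Markers of epithelial cells summed to 0.0757 to 0.479 FPKM in wild type and to 0 to 0.541 in the knockout, and the defining markers Epcam, Krt5 and Krt14 were at 0 in all 6 libraries. The related factor genes Elf1 and Elf2 were lower with groups apart and did not pass the test (limma adjusted p = 0.476 and 0.268). In the other relatives measured, Elf4, Elf5 and Ehf, the groups overlapped, and Elf5 and Ehf were too low to be fitted.

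Gm12185, a predicted gene that lies among immunity-related GTPase genes, was at 0.438, 0.377 and 0.583 FPKM in wild type and at 2.28, 4.03 and 1.58 in the knockout, a ratio of 5.64. The limma log2 difference was 2.18 ± 0.37 (adjusted p = 0.0299), a call that was lost with the replicate block and on leaving out any single library. Interferon-inducible GTPases normally rise together when interferon acts on a cell. Of 11 others measured, 10 were fitted, and limma called none; at an unadjusted p under 0.05, 1 was higher and 3 were lower, the authors' q-value called 3 lower, and their median log2 difference was -0.63. Groups were apart with the knockout lower in 4 of them and higher in none, beside 11.6% and 12.5% of all genes fitted. Tgtp2 was at 0.703, 0.402 and 1.35 FPKM in wild type and at 0.102, 0.220 and 0.0451 in the knockout (adjusted p = 0.122), and Gbp7 at 5.51, 4.40 and 5.54 and at 2.86, 3.44 and 2.97 (adjusted p = 0.0704). Irgm1, close by on the chromosome, was at 14.05, 7.69 and 10.7 FPKM and at 9.80, 10.7 and 11.01. Of 11 further interferon response genes fitted limma called none, none had an unadjusted p under 0.05, the authors' q-value called none, and the median was -0.25. The sign of the Gm12185 difference was set by the choice of genes, so nothing is read from its contrast with these medians. The part of interferon was not tested.

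Among genes of the cytoskeleton and of calcium binding, Stmn4, a stathmin of neurons that loosens microtubules, was at 0, 0 and 0.284 FPKM in wild type and at 1.10, 0.870 and 0.859 in the knockout. The knockout values were even, and the wild-type level rested on replicate 3. Stmn1 was at 1.31, 2.26 and 0.920 FPKM and at 2.27, 2.26 and 3.34 (limma adjusted p = 0.253), and Stmn2 at 1.41, 1.36 and 0.921 and at 1.14, 1.13 and 1.67 (adjusted p = 0.908). Marker genes of neurons summed to 16.8 to 22.5 FPKM in wild type and to 13.9 to 17.3 in the knockout, but most of this sum was the potassium channel gene Kcnc1. Without it the other 37 genes summed to 4.48, 4.49 and 3.83 FPKM in wild type and to 4.59, 5.95 and 5.76 in the knockout, so every knockout library was higher; this sum was chosen after the values were seen. Much of this difference lay in the synaptic vesicle gene Syp, at 0.630, 0.337 and 0.480 FPKM and at 1.17, 1.77 and 1.56 (limma adjusted p = 0.0589). Groups were also apart, with the knockout higher, in Srrm4, at 0.0429 to 0.0526 FPKM in wild type and 0.263 to 0.331 in the knockout. The same held for Tubb3, at 0 to 0.103 and 0.159 to 0.312. The knockout was lower with groups apart in L1cam, at 0.527 to 0.675 and 0.301 to 0.464 FPKM. It was also lower in Gprin1, at 0.0396 to 0.121 and 0, and in Kcnc1, at 12.3 to 18.6 and 7.97 to 11.5 (authors' q-value 0.00119). Of the 6 neuronal genes fitted, groups were apart upward in 1 and downward in 2, beside 12.5% and 11.6% of all genes fitted. Markers of Schwann cells, which wrap the nerve, summed to 8.86 to 11.1 FPKM in wild type and to 9.83 to 10.2 in the knockout. The part of nerve cells in the Stmn4 level was not tested. Tesc, which encodes the calcium-binding protein tescalcin, was at 0, 0 and 0.214 FPKM and at 0.661, 0.787 and 0.648, also with its only wild-type value above 0 in replicate 3. Its relatives Chp1 and Chp2 were not called (limma adjusted p = 0.248 and 0.570), Chp1 being lower in every knockout library.

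Ccdc34, a coiled-coil protein gene of cilia and sperm flagella, was the most even of the group. It was at 1.02, 0.922 and 0.918 FPKM in wild type and at 2.58, 2.66 and 2.65 in the knockout. The spread within each group was far smaller than the distance between them (0.954 ± 0.0590 and 2.63 ± 0.0454 FPKM, a ratio of 2.76). The limma log2 difference was 1.38 ± 0.19 (adjusted p = 0.0201) and the q-value deposited by the authors was 0.00927. Both use the contrast by which Ccdc34 was chosen and are no separate support. The limma call was lost with the replicate block and without wild-type replicate 2 or any single knockout replicate. The antisense gene that overlaps it, Ccdc34os, was listed at 0 in all 6 libraries.

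The 3 remaining genes are noncoding RNAs, whose functions are not known. Long noncoding RNAs made up 3 of the 19 genes (15.8%) and 11.2% of the 1254 genes with a biotype that were low in wild type and at 0.5 FPKM or more in the knockout. 4930509E16Rik was at 0.163, 0.196 and 0.319 FPKM in wild type and at 1.23, 1.76 and 1.21 in the knockout, a ratio of 6.20. 4930552P12Rik was at 0.209, 0.167 and 0 FPKM and at 0.422, 0.502 and 0.826, and Gm20597 at 0.121, 0.109 and 0.118 and at 0.456, 0.579 and 0.671. Gm20597 was steady within the groups, whereas 4930552P12Rik only just met the separation.

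The knockout libraries shared the high values between them. Replicate 1 was the highest for 7 genes and replicates 2 and 3 for 6 each, beside 34.9%, 34.8% and 30.3% of all genes fitted. The highest knockout value was over 2 times the lowest in 6 genes and under 1.5 times in 10. The median coefficient of variation over the knockout libraries was 22.3%, and it was 19.7% over the 6674 genes fitted with a knockout mean of 0.5 to 7 FPKM. Leaving out 1 library moved the ratio of means by over 1.5 times in 9 genes, in 8 of them through a wild-type library and in 3 through a knockout library. Besides the genes already given, these included Tmem202, Stmn4 and Tesc, in which the wild type is at 0 without replicate 2, 3 and 3, respectively.

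Other pathway lists bear on whether whole programmes accompany these genes. Of 38 neuronal genes measured, 12 were at 0 in all libraries and 6 were fitted, and of 30 germline genes 20 were at 0 and 3 were fitted. Limma called none of these 9 genes; at an unadjusted p under 0.05, 1 neuronal gene was higher and 1 lower, and the authors' q-value called 1 neuronal gene lower. Of 20 fitted p53 targets limma called 1 higher, Cdkn1a, and none lower, with 5 higher and 2 lower at an unadjusted p under 0.05 and 5 higher by the authors' q-value. Among 22 genes of embryonic or denervated muscle, limma called Mybph higher and Musk, of the neuromuscular junction, lower, with 5 higher and 5 lower at an unadjusted p under 0.05 and 4 higher and 3 lower by the authors' q-value. Neither call held with the replicate block or without wild-type replicate 2, wild-type replicate 3 or knockout replicate 3. The higher call was also lost with no filter, after upper-quartile scaling and without knockout replicate 1, and the lower call without wild-type replicate 1 or knockout replicate 2.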

How the data were processed

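The authors deposited FPKM per gene and library for 3 wild-type and 3 knockout quadriceps libraries at ZT10. The submitters' processing notes name TopHat2, Cuffdiff and the mouse build mm9. For each gene the authors also deposited the p-value and q-value of this comparison. A gene was taken as tested there when its p was under 1. The sources used here give no tool versions, annotation or strandedness. Groups came from the labels. The members and all gene lists were chosen with earlier results of these data known, and lists of relatives after the members were known. Of the 19 members 18 are named and 1, counted in all totals, is not reported here by name; relatives, genomic neighbours and list genes stand beside them.

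From FPKM, limma 3.58.1 (R 4.3.3) was fitted to log2(FPKM + 0.1) of all 13009 genes with a mean of at least 0.25 FPKM, with a mean-variance trend and Benjamini-Hochberg adjustment over all genes fitted, two-sided. Its differences understate the change of low genes. The script was tested on simulated data. Relative depth came from the spacing of low values, 93.1% to 95.8% of which had ratios of small whole numbers. No counting intervals are given, since read numbers are not in the files. Gene neighbours and upstream sequence came from RefSeq on GRCm38.p6, matched by symbol, with no coordinates taken from the deposited table. The peak lists use mm9 positions and were not used here. Alternatives were other pseudocounts and filters, upper-quartile scaling, a replicate block, the authors' q-values and leaving out each library.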

Additional observations from a re-analysis of the deposited data

How the results depend on the processing

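Limma called 226 genes higher and 132 lower, and 14 higher and 1 lower of 128 listed pathway genes. With the authors' q-values these were 543, 455, 31 and 6. With a replicate block they were 13, 7, 3 and 0. Leaving out 1 library gave 8 to 120 higher and 5 to 61 lower genes, and 2 to 11 higher and 0 to 1 lower listed genes. The correlations of same-numbered libraries' deviations, 0.0253, 0.0292 and 0.0316, do not show that the numbers pair the samples, although each library correlated best with its own number. Of the 19 members limma called 7; with the block it called none, and all 19 had an unadjusted p under 0.05, which the choice of members sets. It called 8 with a pseudocount of 0.5 or 1, 6 after upper-quartile scaling, 4 of 7 at a mean of at least 1 FPKM, and 0 to 5 without 1 library. Of 213 limma refits of single members, taken over all 19, 44 ended and 7 gained a call. Only refits of the 7 called members could end a call, so the 44 are a far larger share of those refits. The sign of all refits is fixed by the choice of members. The cause was not tested.

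The conditions were met by 23 genes. A separation of 1.5 gave 56 and of 3 gave 11, and a knockout mean of at least 1 FPKM gave 12. Leaving out 1 library gave 36 to 50, since fewer libraries have to be apart. A wild-type mean below 0.5 FPKM gave 19 and upper-quartile scaling 21. A relation of members to HDAC3 peaks was not run, as gene positions on mm9 are not used here. Depth limits low members: the smallest fragment numbers, found for 14 of 19, sum to 5 or fewer in wild type in 11, and the true numbers may be multiples of these.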
